A study of Mus musculus with 6 samples.

Results

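Stromal metalloproteinases and their inhibitors are represented here by 6 genes, which encode 3 matrix metalloproteinases (Mmp2, Mmp13 and Mmp14) and 3 of their tissue inhibitors (Timp1, Timp2 and Timp3). They were measured in RNA from the proximal end of the mouse incisor. They were chosen by name, with earlier results of these data known. All 6 were among the 19060 genes of the deposited table and among the 15826 genes tested. The samples were 3 controls (Fgfr1fl/fl in the protocol, wild type in the genotype label) and 3 mutants (Gli1-Cre;Fgfr1fl/fl in the labels, Gli1CreER;Fgfr1fl/fl in the study's methods). By the extraction protocol in the labels both groups carried floxed Fgfr1 alleles, which the genotype label of the controls does not show. Both were on a mixed background, received tamoxifen at 1 month of age and were collected 1 week later. Cre is driven by Gli1, so deletion is limited to Gli1+ cells and their progeny, while the RNA came from the whole dissected end, with its mesenchyme, epithelium, vessels and bone cells. In such bulk RNA, fewer cells of a type and less RNA per cell cannot be told apart. No source states that the samples of a group came from separate animals, and p-values measure the spread between these samples.

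Matrix metalloproteinases are zinc-dependent enzymes that cut collagens and other matrix proteins, and most are made as inactive proenzymes. TIMPs bind the active site of these enzymes and block it. The members also meet in a well known activation step at the cell surface, in which the membrane enzyme Mmp14 holds Timp2, Timp2 holds the proenzyme of Mmp2, and a neighbouring free Mmp14 cuts the proenzyme. In teeth and bone these genes are mainly products of mesenchymal cells, and Mmp13 is best known from osteoblasts and hypertrophic chondrocytes.

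On GRCm38 (GENCODE M21), Mmp2, the gelatinase A gene, lies on chromosome 8 from 92827291 to 92853420, and its longest coding transcript has 13 exons and 3078 bases. Mmp13, the collagenase 3 gene, lies on chromosome 9 from 7272514 to 7283331, with 10 exons and 2673 bases. Mmp14, which encodes the membrane-anchored MT1-MMP, lies on chromosome 14 from 54431612 to 54445364, with 10 exons and 3238 bases. Timp2 lies on chromosome 11 from 118301069 to 118355740, with 5 exons and 3709 bases, and Timp3 on chromosome 10 from 86300372 to 86349506, with 5 exons and 4722 bases. Timp1 lies on chromosome X from 20870166 to 20874735, with 6 exons and 883 bases, and is by far the shortest transcript of the 6.

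Promoter windows from RefSeq (GRCm38.p6, 250 bases before to 50 after the start) matched 5 of the 6 genes, all but Mmp2. They were searched on both strands for TGANTCA (the AP-1 site), GGGCGG (the GC box) and TGTGGT (a Runx site), none of which overlaps another in letters. The 150 bases before the start are shown for Mmp13, the only one of the 5 windows with an AP-1 match, for Timp1, the one gene of the 6 that was higher in every mutant than in every control, and for Timp2, as a GC-rich inhibitor promoter beside it. They are written 5′ to 3′ on the gene's strand, at chr9:7272364-7272513 (+), chrX:20870016-20870165 (+) and chr11:118355412-118355561 (−), with motif matches in capitals. The starts are those of RefSeq. For Timp2 the GENCODE span reaches 118355740, so the bases shown lie before the RefSeq start but inside that span.

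Mmp13: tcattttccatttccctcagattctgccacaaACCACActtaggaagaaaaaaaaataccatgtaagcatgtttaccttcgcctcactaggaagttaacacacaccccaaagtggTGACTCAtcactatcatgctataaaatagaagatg
Timp1: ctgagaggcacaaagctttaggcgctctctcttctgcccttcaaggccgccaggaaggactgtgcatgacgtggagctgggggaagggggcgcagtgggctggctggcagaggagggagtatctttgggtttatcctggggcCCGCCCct
Timp2: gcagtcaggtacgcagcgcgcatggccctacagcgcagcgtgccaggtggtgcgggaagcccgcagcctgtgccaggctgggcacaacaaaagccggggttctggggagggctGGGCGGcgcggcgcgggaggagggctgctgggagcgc

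The Mmp13 window held 1 AP-1 match and 1 Runx match, which begin 35 and 118 bases before the start, and no GC box. Its GC content was 43.7%, against 55, 68.7 and 67% in the windows of Timp1, Timp2 and Timp3, 56% in that of Mmp14, and a median of 52.7% over all windows. A GC box was found in the windows of the other 4 genes, with 2 matches each for Mmp14 and Timp3 and 1 each for Timp1 and Timp2, and the Mmp14 window also held 1 Runx match. Of 32851 windows in the table, 7.81% held an AP-1 match, 35.7% a GC box and 16.8% a Runx match. These matches are descriptions of the letters only.

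Total counts were between 31060207 and 32712454 in the controls and between 5276568 and 11819566 in the mutants, so each mutant library was shallower than each control library. Genes with a rounded count of 0 made up 3.83 to 3.96% of the table in controls and 17.1 to 30.3% in mutants. Values are given below as CPM, counts scaled to a common library size by total and upper quartile, on which a floor of 3 counts is worth 0.0825 to 0.0874 CPM in controls and 0.256 to 0.655 CPM in mutants. The 6 genes lay far above this, from 244 counts (Timp1, mutant 1) to 18255.7 estimated counts (Timp3, control 2). Fgfr1, the targeted receptor gene, had 529, 924 and 434 CPM in controls and 148, 318 and 262 CPM in mutants, a log2 fold change of -1.37 (SE 0.40, adjusted p = 0.0881, edgeR). Counts of the Y-linked genes Ddx3y, Eif2s3y, Kdm5d and Uty were 0 in mutants 1 and 2, which held 498 and 3315 counts of Xist, whereas the controls and mutant 3 held at least 156 counts of each Y-linked gene and at most 6 of Xist. Sex was therefore not balanced between the groups by these counts.

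Among the proteinases, Mmp2 was lower in every mutant than in every control, while Mmp14 and Mmp13 overlapped between the groups. Among the inhibitors, Timp1 was higher in every mutant than in every control, and Timp2 and Timp3 overlapped. With edgeR's quasi-likelihood test and adjustment over all genes tested, 0 of the 6 genes passed an adjusted p of 0.05, a limit that 6.79% of all genes passed. The study's own criterion, an unadjusted p below 0.05 with a change over 1.5-fold, was met by Mmp2 in the lower direction and Timp1 in the higher direction, as it was by 8.92% and 10.9% of all genes in those directions. Groups that did not overlap were found for 2 of the 6 genes and for 30.4% of all genes, so the share among the 6 was close to that of the table. The median log2 fold change of the 6 was -0.38, beside -0.040 over all genes tested, and 4 of the 6 were below 0, as were 51.8% of all genes.

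**Figure D1:**
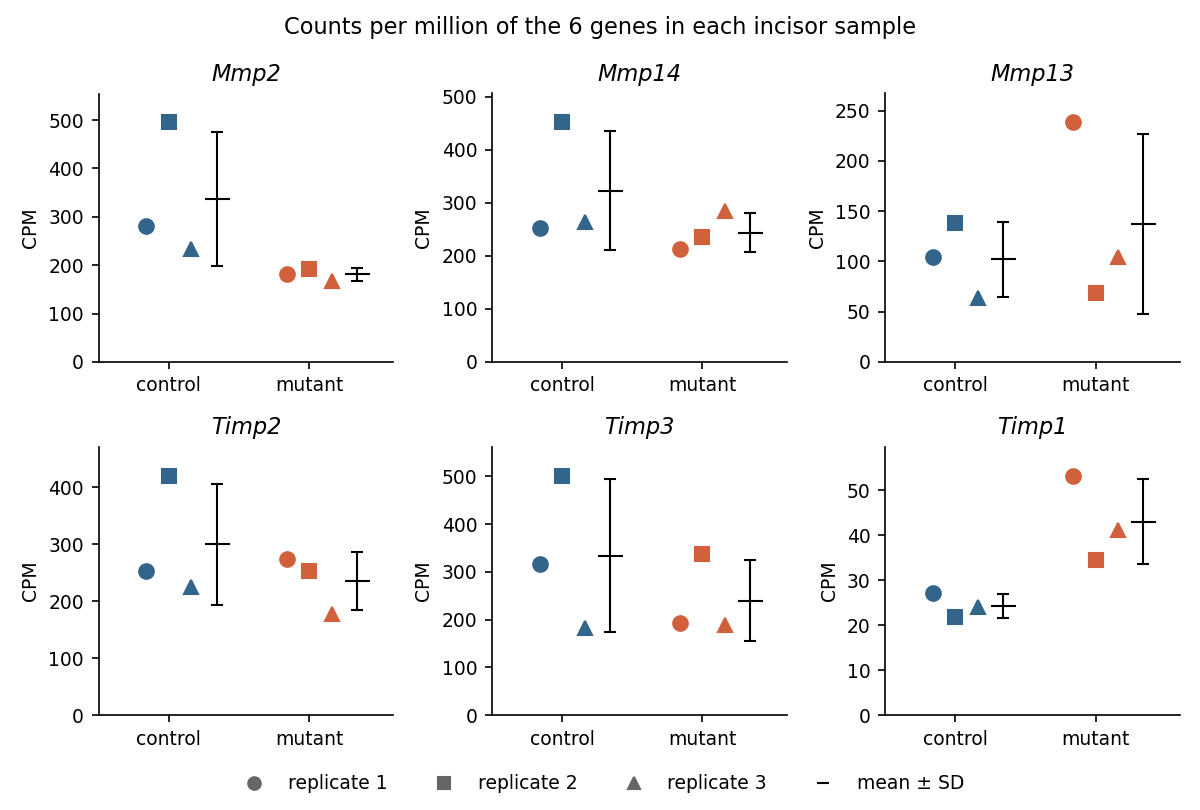
CPM after upper-quartile scaling (y axis, from 0, with a scale of its own in each panel) of the 6 genes in each of 3 control and 3 mutant samples (x axis), with replicate numbers as symbols and bars for mean ± SD. The 3 mutants lie below all controls for Mmp2 (at most 193 CPM against at least 234) and above all controls for Timp1 (at least 34.5 CPM against at most 27.1), and the groups overlap for the other 4 genes.

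Mmp2 had 282, 495 and 234 CPM in the 3 controls and 182, 193 and 167 CPM in the 3 mutants. The means were 337 ± 139 CPM in controls and 181 ± 12.7 CPM in mutants (SD, n = 3 each), 1.87 times lower in mutants. The log2 fold change was -0.90 (SE 0.32), and edgeR gave an adjusted p of 0.154 (0.0218 before adjustment). The highest mutant was at 0.823 times the lowest control, so the gap between the groups was small beside the 2.12-fold range within the controls. Without control 2, the highest of the controls, the log2 fold change was -0.51 and the study's criterion was no longer met, nor was it without mutant 2 or without mutant 3. DESeq2 gave -0.94 with an adjusted p of 0.0370 and so called Mmp2, as the 1 gene of the 6, where it called 10.2% of all genes and 3.18% in this direction.

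Mmp14 had 253, 452 and 265 CPM in controls and 213, 235 and 284 CPM in mutants. Control 2 stood apart and the other samples of both groups shared 1 range. The log2 fold change was -0.41 (SE 0.30, adjusted p = 0.526, edgeR), and it was -0.086 without control 2. Mmp13 had 104, 138 and 64.0 CPM in controls and 238, 68.4 and 104 CPM in mutants, so that mutant 1 was the highest of all 6 samples and mutant 2 lay near the lowest control. Its log2 fold change was 0.42 (SE 0.48, adjusted p = 0.711, edgeR), and it was -0.26 without mutant 1, the shallowest library.

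Mutant 1 also had the highest summed level of the 5 osteoclast markers, genes of the bone-resorbing cells that share the bone surface with Mmp13-expressing osteoblasts. Acp5, the tartrate-resistant phosphatase of osteoclasts, was at 42.0, 74.3 and 41.7 CPM in controls and 156, 18.4 and 72.4 CPM in mutants, and Ctsk, their main collagen-cutting cathepsin, at 129, 129 and 73.6 CPM against 311, 103 and 258 CPM. Mmp9, the gelatinase B gene that osteoclasts express strongly, followed the same samples with 22.5, 49.2 and 19.3 CPM against 81.0, 25.7 and 47.1 CPM. These 3 genes were picked with their values in view. All 5 osteoclast markers had a log2 fold change above 0, with a median of 1.79 and 0 of 5 past an adjusted p of 0.05, and their summed level was 117 to 208 CPM in controls and 124 to 493 CPM in mutants. Of these markers, Ocstamp was highest in mutant 3, at 3.43 CPM against 1.09 CPM in mutant 1. The summed level of 6 osteoblast markers was 6369 to 9788 CPM in controls and 7939 to 10142 CPM in mutants. Among mutants that sum was lowest in mutant 1 and highest in mutant 2, whereas Mmp13 was highest in mutant 1 and lowest in mutant 2. The part of either cell type in the level of Mmp13 was not tested.

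Timp1, an inhibitor that is induced in many tissues and is a poor inhibitor of the membrane-type enzymes, had 27.1, 21.9 and 24.0 CPM in controls and 53.3, 34.5 and 41.2 CPM in mutants. The controls were tightly grouped at 24.3 ± 2.63 CPM and the mutants wider at 43.0 ± 9.50 CPM (SD, n = 3 each), 1.77-fold higher. The log2 fold change was 0.82 (SE 0.29), and edgeR gave an adjusted p of 0.153 (0.0215 before adjustment). It stayed between 0.62 and 0.95 when any 1 sample was left out, but the study's criterion was not met without control 2 or without control 3. Timp1 is X-linked, and mutant 3, which resembled the controls in its Xist and Y-linked counts, had 41.2 CPM, against at most 27.1 CPM in controls. The part of sex in the level of Timp1 was not tested.

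Timp2, the partner of Mmp14 and the proenzyme of Mmp2, had 253, 421 and 225 CPM in controls and 275, 253 and 178 CPM in mutants, a log2 fold change of -0.35 (SE 0.32, adjusted p = 0.626, edgeR). Timp3, which binds the matrix and also inhibits several ADAM and ADAMTS enzymes, had 316, 502 and 183 CPM in controls and 193, 338 and 189 CPM in mutants, a log2 fold change of -0.48 (SE 0.41, adjusted p = 0.605, edgeR). For both, control 2 was the highest sample and the other controls overlapped with the mutants. Without control 2 the log2 fold changes of Timp2 and Timp3 were -0.025 and -0.057.

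Control 2 was the highest control for 5 of the 6 genes, all but Timp1, as it was for 34.4% of 9707 genes with a mean of at least 10 CPM. The coefficient of variation over controls was 34.6 to 48.0% for those 5 genes and 10.8% for Timp1, beside a median of 22.1% over the same 9707 genes. Over mutants it was 7.04% for Mmp2, 14.9% for Mmp14, 22.1% for Timp1, 21.5% for Timp2, 35.3% for Timp3 and 65.4% for Mmp13, beside a median of 31.7%. The order of the genes by spread thus differed between the groups, with Mmp2 among the most variable in controls and the least variable in mutants.

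The inhibitor genes share their loci with other genes. Timp1 lies inside Syn1 and Timp3 inside Syn3, both on the opposite strand, and Timp2 contains Cep295nl on its own strand, and no source used here says whether counting used strand. The neighbours were nearly silent, with 25, 45 and 28 counts of Syn1 in controls and 0, 0 and 37 in mutants, 15.5, 28.4 and 24.1 estimated counts of Syn3 in controls and under 1 in each mutant, and 5, 16 and 11 counts of Cep295nl in controls and 0 in each mutant. Against 796.0 to 930.0 counts of Timp1 in controls and 244 to 409 in mutants, reads of Syn1 were few.

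The change of a gene in this comparison ran with the length of its transcript across the whole table. Over protein-coding genes that averaged 50 counts or more, the median log2 fold change was 0.93 for 585 genes with a longest transcript under 1000 bases, 0.083 for 3538 genes from 1000 to 2500 bases, -0.23 for 5326 genes from 2500 to 5000 bases and -0.24 for 2777 longer genes. Timp1, at 883 bases, falls in the shortest class, and its log2 fold change of 0.82 lay below the median of that class, with 55.4% of the class higher. The other 5 genes fall in the class from 2500 to 5000 bases. In it, 16.1% of genes had a lower log2 fold change than Mmp2, 36.1% than Timp3, 40.1% than Mmp14, 43.0% than Timp2 and 80.8% than Mmp13.

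**Figure D2:**
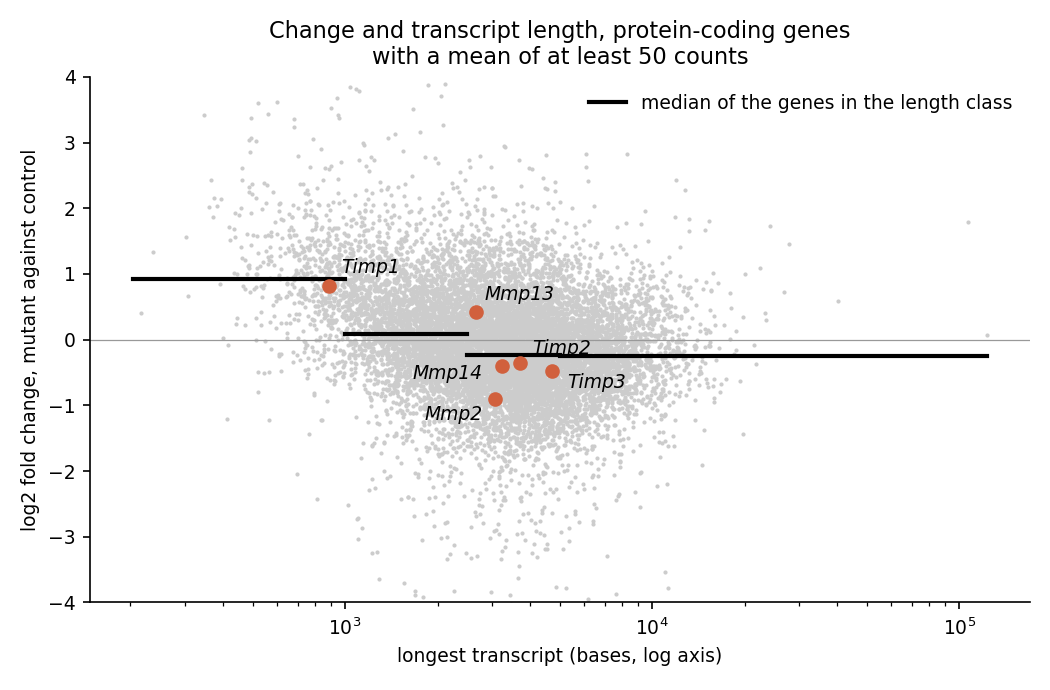
Log2 fold change of mutants against controls (y axis, limited to 4 on either side of 0, with 11 genes above and 56 below it) against the longest transcript (x axis, log scale, bases) for 12226 protein-coding genes, with black lines for the median of each length class and the 6 genes in orange. Timp1 (0.82) sits just under the median of the shortest class (0.93), and Mmp2 (-0.90) sits farthest below the median of its class (-0.23).

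When this trend with length and the one with GC content were removed in the edgeR fit, Mmp2 kept its direction at -0.42 (SE 0.27, adjusted p = 0.570) and Timp1 was at -0.058 (SE 0.23, adjusted p = 0.953), so the higher value of Timp1 was not seen on that scale. Mmp14 was then at 0.069, Timp2 at 0.16, Mmp13 at -0.19 and Timp3 at -0.30, none past an adjusted p of 0.05. The study's criterion was met by 0 of the 6 genes in the lower direction after the correction. With scaling by total counts alone, which moved the median of all genes from -0.040 to -0.30, Mmp2 was at -1.18 and Timp1 at 0.55, and Timp1 no longer met the study's criterion.

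**Figure D3:**
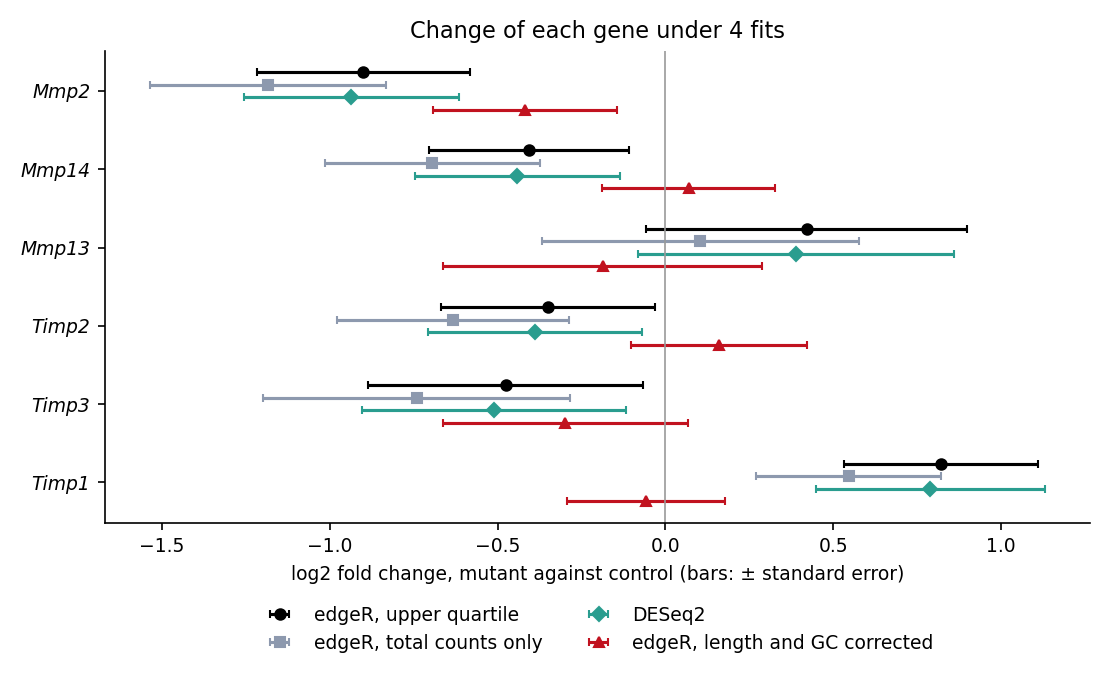
Log2 fold change of mutants against controls (x axis) for each of the 6 genes (y axis) in 4 fits, edgeR with upper-quartile scaling, edgeR with total counts only, DESeq2, and edgeR with length and GC content corrected, with bars for the standard error. Mmp2 lies below 0 in all 4 fits, from -1.18 to -0.42, whereas Timp1 goes from 0.82 with upper-quartile scaling to -0.058 with the correction.

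Ratios between 2 genes in the same sample do not depend on the scaling of the libraries. They compare RNA counts pooled over all cells of a sample, and neither protein nor activation was measured. The log2 ratio of Mmp2 to Timp2 counts was 0.16, 0.24 and 0.054 in controls and -0.59, -0.39 and -0.089 in mutants. Every mutant was below every control, and the means were 0.15 ± 0.091 and -0.36 ± 0.25 (SD, n = 3 each), a difference of -0.51. The log2 ratio of Mmp2 to Mmp14 was 0.16, 0.13 and -0.18 in controls and -0.23, -0.29 and -0.76 in mutants. These groups too did not overlap, by a narrow gap between -0.18 in control 3 and -0.23 in mutant 1, and the difference of the means was -0.46. Over 9706 genes with a mean of at least 10 CPM, the ratio to Timp2 did not overlap between the groups for 20.3% and was lower in every mutant for 2.44%, and for the ratio to Mmp14 these shares were 22.4% and 3.06%. With length and GC content corrected the differences were -0.53 for Mmp2 to Timp2 and -0.45 for Mmp2 to Mmp14, and with any 1 sample left out they ran from -0.64 to -0.39 and from -0.57 to -0.29. No test was made of these ratios, as the pairs were set with earlier results known.

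The log2 ratio of Mmp14 to Timp2 was 0.00067, 0.10 and 0.23 in controls and -0.37, -0.11 and 0.67 in mutants. The mutants spread on both sides of the controls, and the difference of -0.046 changed sign when control 3, mutant 1 or mutant 2 was left out. The log2 ratio of Mmp13 to Timp1 was 1.94, 2.66 and 1.42 in controls and 2.16, 0.99 and 1.34 in mutants, with overlapping groups and a difference of -0.51 that was -0.18 after the length and GC correction. The summed level of the 3 proteinases over that of the 3 inhibitors, each per transcript length, had log2 values of 0.33, 0.53 and 0.52 in controls and 0.29, -0.15 and 0.43 in mutants. These groups overlapped, with a difference of -0.27, or -0.095 after the correction.

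**Figure D4:**
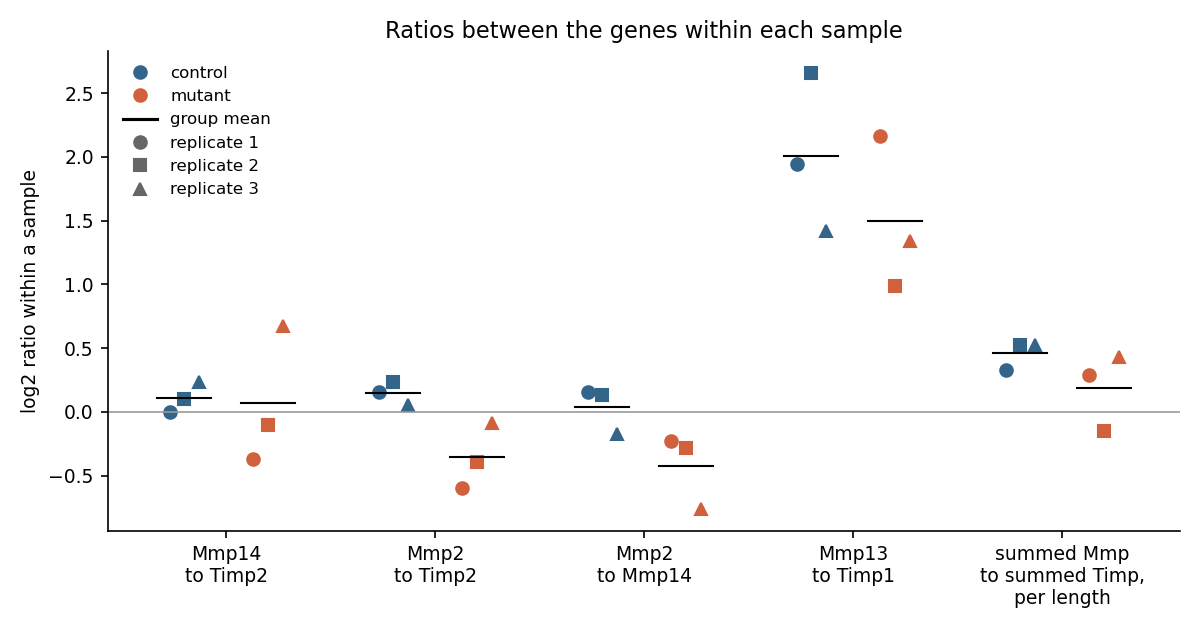
Log2 ratio within a sample (y axis) for 4 pairs of the genes and for the summed level of the 3 Mmp over the 3 Timp per transcript length (x axis), with each point 1 sample, replicate numbers as symbols and lines for group means. The groups are apart for Mmp2 to Timp2 (means 0.15 and -0.36) and Mmp2 to Mmp14 (means 0.037 and -0.42) and overlap for the other 3 ratios.

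Levels of different genes were compared per transcript length, as TPM, counts divided by the longest coding transcript and scaled to the same sum in every sample. In controls the order of mean levels was Mmp2 at 227 ± 138 TPM, Mmp14 at 206 ± 112, Timp2 at 167 ± 91.5, Timp3 at 147 ± 96.3, Mmp13 at 78.3 ± 41.6 and Timp1 at 53.8 ± 5.17 (SD, n = 3). In mutants it was Mmp14 at 90.9 ± 15.3 TPM, Timp2 at 76.9 ± 19.8, Mmp2 at 71.2 ± 12.6, Timp3 at 63.0 ± 30.2, Mmp13 at 59.6 ± 34.7 and Timp1 at 58.0 ± 7.96. The ranges of neighbours in either order overlapped. Within a control sample, however, Mmp14 was above Timp2, Timp2 above Timp3 and Timp3 above Mmp13 in 3 of 3 controls, and Mmp2 was above Mmp14 and Mmp13 above Timp1 in 2 of 3. With the median transcript length in place of the longest the control order was Mmp2, Timp2, Timp3, Mmp14, Mmp13 and Timp1, and the mutant order was Timp2, Timp3, Mmp2, Mmp14, Mmp13 and Timp1. The contrast between the groups also differed on this scale, where Mmp2 was 3.19 times lower in mutants and Timp1 overlapped between the groups, at 49.3 to 59.5 TPM in controls and 53.3 to 67.2 TPM in mutants. Mmp14 and Timp2, which overlapped in CPM, were lower in every mutant in TPM, 2.27 and 2.17 times. The other members moved the same way between the scales. In the main fit Mmp2, Mmp14, Timp2 and Timp3 were 1.87, 1.33, 1.27 and 1.39 times lower. Timp3 was 2.33 times lower in TPM. Timp1 was 1.77-fold higher in the main fit, with TPM means of 53.8 and 58.0. With length and GC content corrected, Mmp14 and Timp2 had log2 fold changes of 0.069 and 0.16. The part of the scale in these separations was not tested. Mmp13, with a log2 fold change of 0.42 in the main fit, was 1.31 times lower in TPM, with overlapping groups. The share of all genes with groups apart in TPM was not computed, so these separations have no background here. Mmp2 went from the first place in controls to the third in mutants on the longest transcripts. The 3 proteinases held 39.6 to 59.6% of the summed TPM of 15 Mmp genes in controls and 42.0 to 58.0% in mutants, and the highest Mmp gene in controls was Mmp20, the enamel proteinase of ameloblasts, at 391 TPM, named after its level was seen.

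The labelled tissue was checked against its markers, and all 9 mesenchyme markers were measured and tested. Their summed level, mostly Col1a1, was 27681 to 66407 CPM in controls and 22735 to 29827 CPM in mutants, and their mean log2 CPM was 9.50, 9.93 and 9.23 in controls and 9.28, 9.14 and 9.17 in mutants. Control 2 was thus the highest sample for the sum and the mean of these markers, as for 4 of the 6 genes (Mmp2, Mmp14, Timp2 and Timp3). It was not so for every marker, as Lum, Dcn and Vim were highest in mutant 1 and Thy1 in mutant 2. Their log2 fold changes were 0.13, 0.15, -0.00052 and -0.033, while those of the collagen and Pdgfr markers ran from -1.12 (Col1a2) to -0.36 (Col3a1). Set against the mean of the markers in the same sample, a scale chosen after seeing the data, Mmp2 was lower in every mutant by -0.47 (log2) and Timp1 higher in every mutant by 1.16. The mean of the markers was itself 9.55 in controls and 9.19 in mutants, which raises the difference of every gene on this scale. The share of all genes with groups apart on it was not computed. On this scale the other differences were 0.65 for Mmp13, -0.0093 for Mmp14, 0.037 for Timp2 and -0.057 for Timp3, with overlapping groups. The summed level of 6 macrophage markers was 115 to 362 CPM in controls and 249 to 397 CPM in mutants, of 5 endothelial markers 155 to 263 and 122 to 156 CPM, of 5 pericyte and smooth muscle markers 277 to 490 and 427 to 514 CPM, and of the measured neutrophil markers 5.13 to 60.3 and 25.8 to 82.1 CPM. The 5 ameloblast markers summed to 85220 to 119477 CPM in controls and 34140 to 74070 CPM in mutants. That sum was mostly Amelx and Ambn, which were lower in every mutant, as were 16.3% of all genes. Odam (log2 fold change 1.76, adjusted p = 0.0466, edgeR) and Amtn (0.91) were higher in every mutant, as were 14.1% of all genes. The 5 dental epithelium markers summed to 1558 to 3128 CPM in controls and 1390 to 1491 CPM in mutants. For 5 odontoblast markers the sums were 2729 to 9219 and 2924 to 4596 CPM, and for the measured chondrocyte markers 7.48 to 57.5 and 6.35 to 18.0 CPM. Markers of skeletal muscle, which lies outside the tooth, ran from 4.75 to 2183 CPM in controls and from 112 to 3654 CPM in mutants. The share of these cell types in the values of the 6 genes was not tested.

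The profile over the 6 samples was compared with that of each other gene as the root mean square difference of centred log2 CPM, over 9706 genes with a mean of at least 10 CPM. Nearest to Mmp2 were Cpm, which encodes the membrane enzyme carboxypeptidase M, with a difference of 0.050, and Aebp1, which encodes the collagen-binding protein ACLP, with 0.13. Cpm had 64.3, 125 and 55.9 CPM in controls and 41.7, 44.8 and 40.4 CPM in mutants. Its likeness to Mmp2 follows from its selection as the nearest profile. Nearest to Mmp13 were Cacng7 (0.12) and Htra1 (0.13), a secreted serine protease, with 69.1, 91.7 and 49.0 CPM of Htra1 in controls and 141, 40.8 and 71.3 CPM in mutants. The nearest to Mmp14 were Specc1l (0.069) and Exoc4 (0.088), to Timp1 Trappc5 (0.073) and Cebpg (0.075), to Timp2 Rnf157 (0.073) and Asap1 (0.073), and to Timp3 Colec12 (0.15) and Vsir (0.16).

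Between the 6 genes themselves, Mmp2, Mmp14, Timp2 and Timp3 had profiles within 0.30 to 0.42 of each other, and Mmp2 and Timp2 were the closest pair at 0.30. Many other genes were nearer, as Timp2 ranked 232 of 9706 genes by nearness to Mmp2. Ranks within these 4 ran from 133 (Timp2 for Timp3) to 1973 (Timp3 for Mmp14). Mmp13 and Timp1 stood away from these 4, at 0.60 to 0.93, and from each other, at 0.56. With 6 samples in all, of which control 2 is high for 4 of the genes, these distances are descriptions only.

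The wider network of proteinases and regulators was taken from lists of 70 genes, of which 59 were in the table and 55 were tested. By the study's criterion 9 of the 55 were lower and 0 were higher, beside 8.92% and 10.9% of all genes. By an adjusted p of 0.05 in edgeR's fit 3 were lower and 0 higher, beside 3.06% and 3.72% of all genes. These 3 were the leukocyte membrane proteinase Mmp25 (0.903, 0.934 and 0.549 CPM in controls), the epithelial proteinase Mmp28 (2.62, 4.64 and 3.21 CPM) and the broad inhibitor A2m (4.95, 2.80 and 2.89 CPM), each with 0 counts in every mutant and an adjusted p of 0.0464. Against a floor of 3 counts over the mutant group, 0.114 CPM, they were at least 6.95-fold, 30.5-fold and 31.0-fold lower. Of the 485 genes lower at this limit in the whole table, 365 had 0 counts in every mutant, all of whose libraries were shallower, and 0 of the network genes were past it without any 1 of the controls, without mutant 2 or mutant 3, or with the control counts thinned to the mean depth of the mutants.

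**Figure D5:**
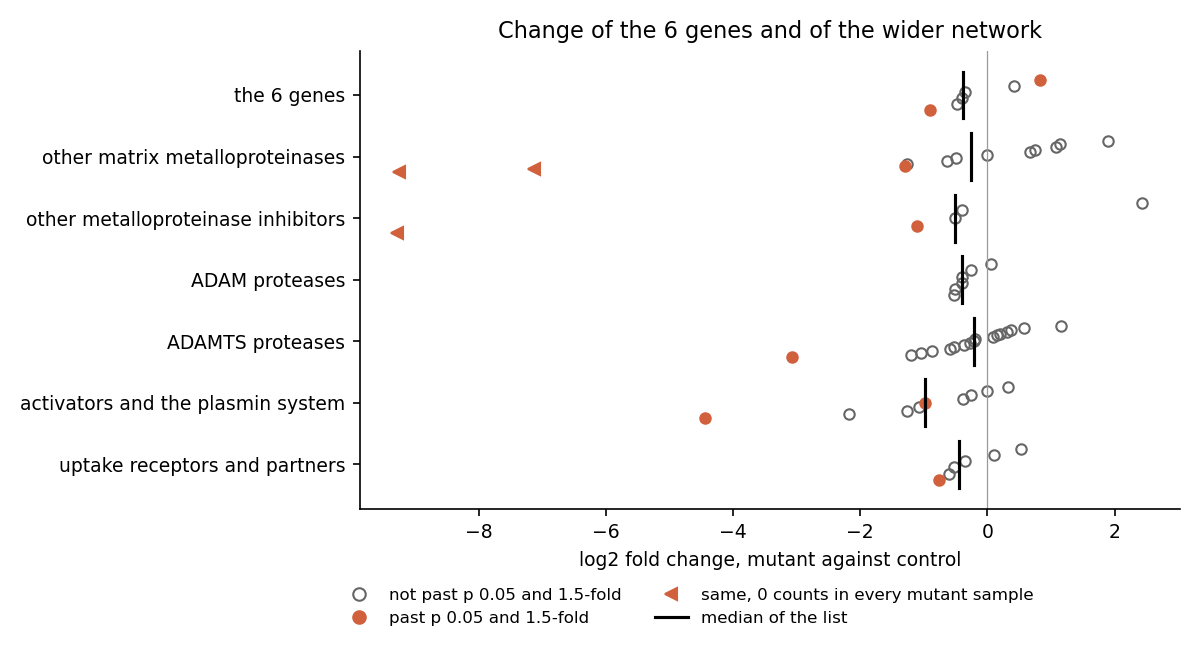
Log2 fold change of mutants against controls (x axis) for the 6 genes and the tested genes of 6 lists of the wider network (y axis), with filled symbols for genes past an unadjusted p of 0.05 and 1.5-fold, triangles for those with 0 counts in every mutant, whose fitted value depends on the prior count, and bars for list medians. In this fit, without the length and GC correction, all filled points of the wider network lie below 0. List medians run from -0.98 to -0.21.

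Among genes with counts in mutants, the furin protease, which cleaves the propeptide of Mmp14, had 141, 267 and 175 CPM in controls and 69.8, 106 and 120 CPM in mutants, a log2 fold change of -0.98 (SE 0.32, adjusted p = 0.129, edgeR). Furin belongs to the activators and the plasmin system, in which 8 of 9 tested genes were below 0, with a median of -0.98 and 2 past the study's criterion. Mrc2, the collagen uptake receptor Endo180, had 411, 604 and 311 CPM against 278, 242 and 263 CPM (log2 fold change -0.76, adjusted p = 0.195, edgeR) and was the 1 of 6 uptake receptors and partners past the study's criterion. All mutants were below all controls for Furin and Mrc2, as for Mmp2 and for 16.3% of all genes, and both were named because they passed the criterion.

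Of the 12 other matrix metalloproteinases tested, 7 were below 0, with a median of -0.26, and the third one past the study's criterion beside Mmp25 and Mmp28 was the membrane-type Mmp15 (-1.29, adjusted p = 0.168, edgeR). Of 5 other inhibitors 4 were below 0, with a median of -0.51, and A2m and the matrix proteoglycan gene Spock2 (-1.11, adjusted p = 0.0966, edgeR) were past the criterion. The membrane-anchored inhibitor Reck, named outside the rule as a known regulator of Mmp2 and Mmp14, had 57.1, 72.7 and 46.6 CPM in controls and 49.98, 39.1 and 35.4 CPM in mutants (-0.51, adjusted p = 0.359, edgeR). The 6 ADAM proteases had a median of -0.40 with 0 past the criterion, and the 17 ADAMTS proteases a median of -0.21 with 1 past it, Adamts7 (-3.07, adjusted p = 0.226, edgeR). Adamts7 was low, with 3.44, 6.73 and 3.35 CPM in controls and 0, 1.11 and 0.403 CPM in mutants. In mutant 3 it lay near the floor of 3 counts, 0.302 CPM. Without control 2, 4 of the network genes were lower by the study's criterion, and without mutant 1, 15 were.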

How the data were processed

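RNA of the proximal incisor from 3 control and 3 mutant samples was sequenced as single reads of 75 bases. The authors trimmed and aligned the reads to mm10 in Partek Flow, the labels' processing notes list TopHat2 2.0.8, and the deposited values are estimated counts per gene, without normalization. The counting model and annotation are not given in the sources used here. The authors' own table of p-values and fold changes between the groups was not used.

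The estimated counts were rounded and tested with edgeR 4.0.16 (R 4.3.3), with upper-quartile scaling, filterByExpr (minimum count 10, total 15), a two-sided quasi-likelihood test and Benjamini-Hochberg adjustment. CPM was computed with the same scaling, and TPM with longest coding transcripts of GENCODE M21, in which 18637 of 19060 symbols matched. DESeq2 1.42.0, other scalings and filters, a replicate block, thinned control counts, a length and GC correction (smooth trends over protein-coding genes averaging 50 counts or more, centred) and the omission of each sample were alternatives. Shallow mutant libraries limit low genes most, and floors cover counting error only.

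The genes and lists were chosen with earlier results of these data known. Genes named were the 6 members, Fgfr1, overlapping genes, for each network list at most 2 higher and 2 lower genes of lowest p among those passing either criterion, and the 2 nearest profiles per member. Exceptions are marked where named. A gene selected by this rule is not reported here. Network genes without a row in the table were not analysed here.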

Additional observations from a re-analysis of the deposited data

How the results depend on the processing

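Mmp2 and Timp3 kept their direction under every alternative tried, and no alternative but DESeq2 put any of the 6 genes past an adjusted p of 0.05 (Mmp2, -0.94). Adjusted p-values over the alternatives ran from 0.0370 to 0.650 for Mmp2, 0.0895 to 0.958 for Timp1, 0.362 to 0.965 for Mmp13, 0.249 to 0.948 for Mmp14, 0.333 to 0.991 for Timp2 and 0.302 to 0.988 for Timp3. The length and GC correction turned Mmp13 (-0.19), Mmp14 (0.069), Timp1 (-0.058) and Timp2 (0.16), and with the replicate block added these were -0.20, 0.092, -0.049 and 0.17. Relative to the mesenchyme markers, added after seeing the data, Timp2 was at 0.037. The cause of these turns was not tested.

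With any 1 sample left out, the log2 fold change ran from -1.11 to -0.51 for Mmp2, -0.26 to 0.73 for Mmp13, -0.56 to -0.086 for Mmp14, 0.62 to 0.95 for Timp1, -0.52 to -0.025 for Timp2 and -0.82 to -0.057 for Timp3. The ratio of Mmp14 to Timp2 ran from -0.35 to 0.17. Genes called at an adjusted p of 0.05 numbered 1074 with edgeR, 1609 with DESeq2, 229 with no filter on low counts, 370 with a filter at a mean of 50 counts, 377 with thinned controls, 132 after the length and GC correction (118 with the block), and 76 (without control 3) to 606 (without mutant 1). Of the called genes 45.2% were lower, 59% with total counts only and 8.3% with no filter. With 1 sample left out this share ran from 2.63% (without control 3) to 22.3% (without mutant 1). Network genes lower by the study's criterion numbered 9, 14 with total counts only, 6 after the length and GC correction and 4 to 15 with 1 sample left out.

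Replicate numbers are shared between the groups, and the study's methods mention 3 pairs of samples without saying what was paired. Same-numbered samples correlated at 0.0472, 0.00937 and 0.0548 in their deviations from the group means. With 3 samples per group these correlations cannot decide whether the samples were paired. With the replicate block 508 genes were called, Mmp2 was at -0.82 (adjusted p = 0.176, edgeR) and Timp1 at 0.80 (adjusted p = 0.236), with no call among the 6 genes changed.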
